A study of Homo sapiens with 6 samples.

Results

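The genes described here encode 5 steroid hormone receptors of the nuclear receptor family: ESR1 (estrogen receptor alpha), ESR2 (estrogen receptor beta), PGR (progesterone receptor), NR3C1 (glucocorticoid receptor) and NR3C2 (mineralocorticoid receptor). They were taken as a named list out of 61279 genes to which reads could be assigned. They were chosen by name, with the difference of their read counts between the labels in view, and their levels are therefore given as a description and without a test. The deposited counts held 63 transcripts of these genes that GENCODE release 44 also annotates. Numbers of annotated transcripts below refer to these. All 6 libraries are labelled as T47D, a hormone receptor-positive human breast cancer cell line, grown in RPMI with serum. The markers of the 3 libraries labelled DMSO went against that name, as described below. There were 3 libraries labelled DMSO, from cells given the solvent for 24 hours, and 3 labelled MI-503, from cells given 4 μmol/L of MI-503 for 24 hours. MI-503 keeps menin, a scaffold protein, from binding the histone methyltransferase MLL1. The study describes the replicates of a label as independent experiments, all under the name of this single cell line. RNA was sequenced in bulk, so fewer cells of a type and less RNA per cell cannot be told apart.

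Steroid receptors are transcription factors that are switched on by a fat-soluble hormone. Without hormone they are held by heat shock proteins and co-chaperones, and with hormone they bind DNA as dimers and recruit coactivators or corepressors to nearby genes. Estrogen receptor alpha drives growth of luminal breast epithelium, and the progesterone receptor is a classical product of its action. The glucocorticoid and mineralocorticoid receptors share the ligand cortisol and almost the same DNA-binding domain.

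The libraries labelled DMSO went against the T47D label. The luminal transcription factor GATA3 had 0, 0.580 and 0 CPM (counts of reads scaled to library size) in the libraries labelled DMSO, and 1423, 1442 and 1412 CPM in those labelled MI-503. Of 12 luminal breast markers tested apart from the receptors, 11 were higher with the MI-503 label and none was lower. Their summed level ran from 1443 to 1779 CPM with the DMSO label and from 11790 to 17981 CPM with the MI-503 label. FOXA1, a luminal factor that prostate epithelium also uses, was at 473 ± 101 and 471 ± 89.4 CPM (SD, n = 3 each). All 10 prostate markers were lower with the MI-503 label, and their sum was 6494 to 7631 CPM with the DMSO label against 89.7 to 102 CPM. KLK3, which encodes prostate-specific antigen, had 3669 to 3758 CPM in the libraries labelled DMSO and no read in the libraries labelled MI-503. HOXB13 had 448 to 616 CPM against at most 0.0487 CPM, and KLK2 had 321 to 392 CPM against at most 0.0487 CPM. Of 11 basal and mesenchymal markers, 3 were expressed enough to test, with 1 higher and 1 lower. Any effect of MI-503 and the difference in what the libraries hold cannot be told apart, and every comparison below is one between labels. No comparison remains without the libraries labelled DMSO, so levels within the MI-503 label are also given alone.

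Over all 16442 genes tested, 62.9% passed edgeR's quasi-likelihood test at an adjusted p under 0.05, 31.7% higher and 31.2% lower with the MI-503 label. The median log2 fold change of all genes tested was -0.004. Values in CPM did not overlap between the labels for 68.7% of the genes, 34.7% with all libraries labelled MI-503 higher and 34% with all of them lower. The libraries held 17404736 to 22168525 reads. Log-scaled values correlated at 0.970 to 0.985 between libraries of the same label and at 0.674 to 0.696 between libraries of different labels.

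The 5 receptors differ in much of their length but share a DNA-binding domain of 2 zinc fingers, and the same place in the coding sequence shows how close they are. The stretches below are the last 24 bases of the exon that carries the first finger, 5′ to 3′ on the coding strand. Capitals mark bases that differ from NR3C1.
NR3C1 (chr5:143314002-143314025, minus strand): ttttcttcaaaagagcagtggaag
NR3C2 (chr4:148259978-148260001, minus strand): ttttcttcaaaagagcagtggaag
PGR (chr11:101126007-101126030, minus strand): tCttcttTaaGagGgcaAtggaag
ESR1 (chr6:151842764-151842787, plus strand): CCttcttcaaGagaAGTAtTCaag
ESR2 (chr14:64279981-64280004, minus strand): CCttTttTaaaagaAGCAtTCaag
Coordinates here and below are those of hg38. NR3C2 had the same base as NR3C1 at 24 of 24 positions, PGR at 19, ESR1 at 15 and ESR2 at 14. Salmon, the program that gave the counts, shares out reads that match several transcripts, and reads from a stretch of this length that is the same in NR3C1 and NR3C2 rest on the bases around it.

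Among the receptors, 4 of 5 had every library labelled MI-503 above every library labelled DMSO, beside 34.7% of all genes tested, and NR3C2 was the exception. All 5 had enough reads to enter the fit over all genes, ESR1, ESR2, PGR and NR3C1 through the libraries labelled MI-503. Estimated reads are given first, then CPM, then TPM, which divides by transcript length and allows genes to be compared.

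**Figure D1:**
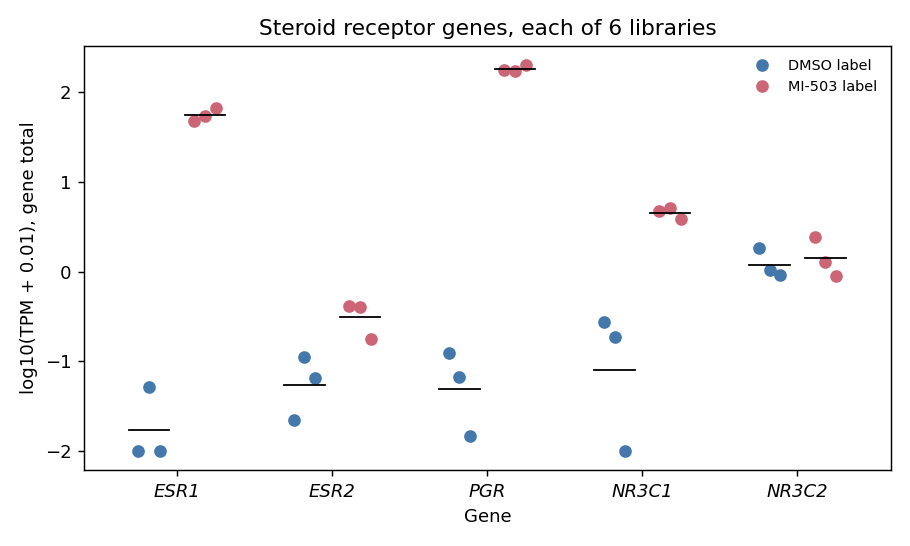
Level of each receptor gene in each of the 6 libraries, as the logarithm to base 10 of TPM plus 0.01, with the bar at the mean of the 3 values. PGR and ESR1 go from near 0 with the DMSO label to 170.3 TPM or more and 47.5 TPM or more with the MI-503 label, NR3C1 and ESR2 sit lower but do not overlap, and the NR3C2 values of the labels overlap.

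ESR1 (ENSG00000091831, chr6:151656691-152129619, plus strand) had 0, 4 and 0 reads in DMSO replicates 1, 2 and 3, and 4298, 4595 and 4975 reads in MI-503 replicates 1, 2 and 3. In CPM this was 0, 0.193 and 0 against 209, 240.1 and 295. The 4 reads with the DMSO label all lay in replicate 2, and every library labelled MI-503 was far above it. The fitted log2 fold change was 11.83 (SE 0.49), and the ratio of pooled scaled reads was 3973 with a 95% counting interval from 1551 to 14583. Intervals here and below cover the counting error of pooled reads only and leave out the spread between libraries. No molecular identifiers were used and several reads can stem from 1 molecule, so the counting error can be larger too. Without DMSO replicate 2 the fit gave 15.28, which rests on no read at all in the group and is not a bound.

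The few ESR1 reads came in a DMSO library that also held traces of other genes high with the MI-503 label. In DMSO replicate 2, ESR1 was at 0.0779% of its mean with the MI-503 label, SERPINA6 at 0.0594%, IGFBP4 at 0.0663%, GATA3 at 0.0407% and PGR at 0.0384%. ESR1, GATA3 and SERPINA6 had no read in DMSO replicates 1 and 3. PGR was at 0.0294% in replicate 1 and 0.00329% in replicate 3. Other genes were not concentrated in replicate 2. PRLR was at 0.0671%, 0.0737% and 0.0312% of its MI-503 mean in DMSO replicates 1, 2 and 3, KRT19 at 0.718%, 0.892% and 0.857%, and NR3C1 at 3.85%, 3.86% and 0%. The source of these reads was not tested.

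ESR2 (ENSG00000140009, chr14:64084232-64338112, minus strand) encodes the second estrogen receptor, which can pair with estrogen receptor alpha. It had 1, 5 and 5 reads with the DMSO label and 17, 15 and 9 with the MI-503 label, or 0.0452, 0.242 and 0.228 CPM against 0.828, 0.784 and 0.534 CPM. The labels did not overlap, but every library held fewer than 20 of its reads. The fitted log2 fold change was 2.04 (SE 0.60), and the pooled ratio was 4.27 with a counting interval from 2.16 to 9.21. Without DMSO replicate 1 the fitted value was 1.59. SYNE2, which encodes a nuclear envelope protein and lies on the opposite strand over the 3′ part of ESR2, had 845 to 1967 reads with the DMSO label and 1176 to 2849 with the MI-503 label. No source used here states that strand was kept, so reads of ESR2 and SYNE2 in shared sequence cannot be told apart. Of the ESR2 transcripts with reads, only ESR2-212, with 2 reads in DMSO replicate 2, reaches into SYNE2.

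PGR (ENSG00000082175, chr11:101029624-101129813, minus strand) was the receptor gene with the highest level. It had 9, 11 and 1 reads with the DMSO label and 26203, 25782 and 25810 with the MI-503 label. The CPM were 0.407, 0.532 and 0.0455 against 1276, 1347 and 1531. The libraries labelled MI-503 were close to each other and none came near a library labelled DMSO. The fitted log2 fold change was 12.03 (SE 0.44) and the pooled ratio 4245, with a counting interval from 2777 to 6858. DMSO replicate 3, with 1 read, moved the fit the most, to 11.51 when left out.

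NR3C1 (ENSG00000113580, chr5:143277931-143435512, minus strand) encodes the receptor for cortisol that most cell types express. It had 16, 15 and 0 reads with the DMSO label and 406, 375 and 286 with the MI-503 label, or 0.723, 0.725 and 0 CPM against 19.8, 19.6 and 16.97 CPM. All libraries labelled MI-503 were higher than all labelled DMSO, by a fitted log2 fold change of 5.27 (SE 0.63). The pooled ratio was 39.4, with a counting interval from 27.6 to 58.3. Although its level with the MI-503 label was far below that of PGR or ESR1, its 3 values there lay within 16.97 to 19.8 CPM.

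NR3C2 (ENSG00000151623, chr4:148078762-148444698, minus strand) encodes the receptor for aldosterone, which also binds cortisol. It had 119, 90 and 84 reads with the DMSO label and 171, 108 and 66 with the MI-503 label. The CPM of 5.38, 4.35 and 3.82 overlapped with 8.33, 5.64 and 3.92. The means were 4.52 ± 0.789 and 5.96 ± 2.22 CPM (SD, n = 3 each), a fitted log2 fold change of 0.40 (SE 0.34). It was the receptor gene with the smallest difference between the labels, and the fit ran from 0.13 to 0.65 as single libraries were left out.

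Per length, PGR stood highest among the receptors with the MI-503 label, at 179, 170.3 and 199.96 TPM. ESR1 followed at 47.5, 53.8 and 67.3 TPM and NR3C1 at 4.71, 5.13 and 3.84 TPM. NR3C2 had 2.43, 1.28 and 0.878 TPM and ESR2 0.398, 0.397 and 0.169 TPM. No 2 neighbours in this order overlapped. With the DMSO label NR3C2 was the highest, at 1.81, 1.03 and 0.895 TPM. NR3C1, at 0.264, 0.177 and 0 TPM, overlapped there with PGR at 0.113, 0.0562 and 0.00478 TPM and with ESR2 at 0.0122, 0.103 and 0.0554 TPM. ESR1, with 0, 0.0416 and 0 TPM, did not differ from these beyond the spread between libraries. The order of the receptors was therefore not the same with both labels.

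The genes with the most similar pattern over the 6 libraries were sought among 11644 protein-coding genes, by the root mean square distance between log2(CPM + 0.5) values after each gene was centred on its own mean. For ESR1 they were S100A10 (distance 0.103), OLFML3 (0.134) and PXMP4 (0.136), all with at most 0.338 CPM with the DMSO label. For PGR they were the prolactin receptor gene PRLR (0.198), IGFBP5 (0.309) and GATA3 (0.343). PRLR had 1.76, 1.93 and 0.820 CPM against 2219, 2825 and 2830 CPM. For NR3C1 they were TGFA (0.163), the sodium channel subunit gene SCNN1B (0.202) and IGF2 (0.213), and all 3 had their lowest level in DMSO replicate 3, as NR3C1 did. For NR3C2 they were LYSMD3 (0.0608), TRIM13 (0.0992) and RFFL (0.103). LYSMD3 had 42.7, 35.9 and 33.3 CPM with the DMSO label and 64.7, 43.6 and 35.4 with the MI-503 label, so it too was highest in replicate 1 of each label. These genes were picked by their likeness over the same 6 libraries, so shared highs and lows follow from the search. ESR2 was too low for such a search.

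Transcripts were described by their share of the gene's TPM, for the genes with at least 30 reads in every library of a label. These were PGR, ESR1 and NR3C1 with the MI-503 label and NR3C2 with both. The shares are salmon's estimates, and the error of splitting reads between transcripts is not in the files.

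**Figure D2:**
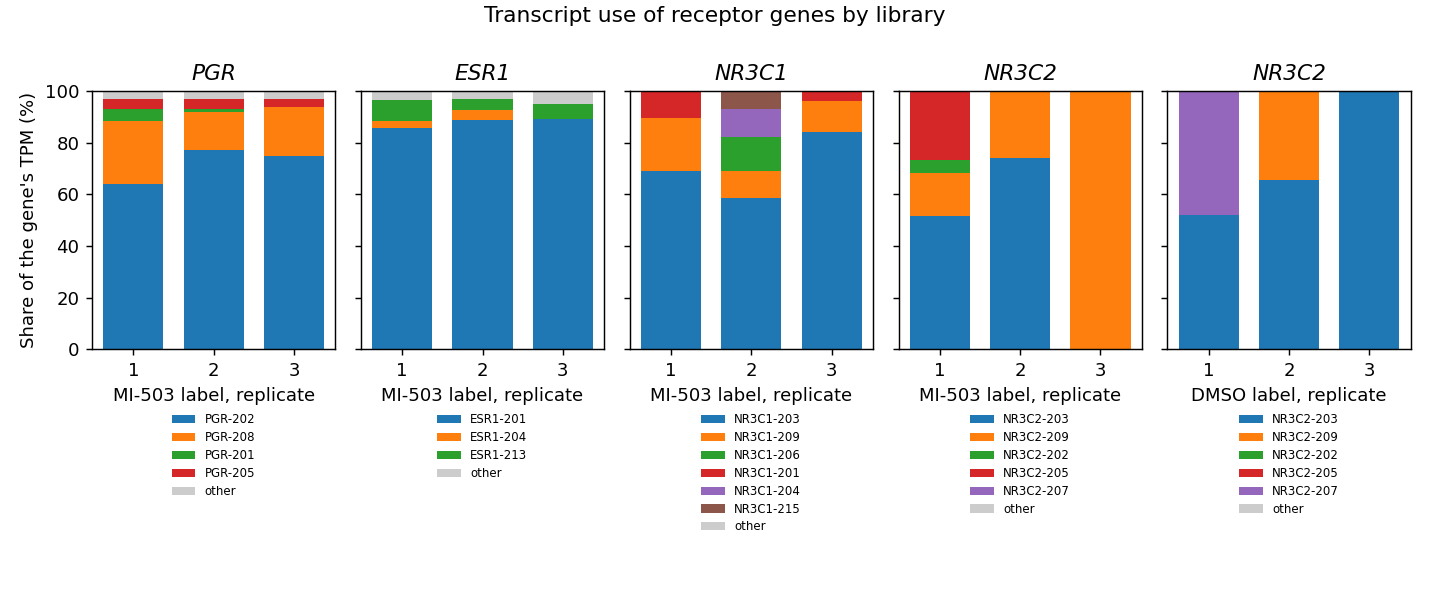
Share of each gene's TPM taken by its transcripts, in percent, with a stacked bar per library for PGR, ESR1, NR3C1 and NR3C2 with the MI-503 label and NR3C2 with the DMSO label. A single transcript holds most of PGR, ESR1 and NR3C1 in every library shown, while NR3C2-203 ranges from 0% to 74.2% among the libraries labelled MI-503.

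Reads fell on 9 of the 10 annotated PGR transcripts with the MI-503 label. PGR-202, which encodes the full protein of 933 residues, held 63.8%, 77.0% and 74.8% of the gene's TPM (71.9% ± 7.06, SD, n = 3). PGR-208, annotated as a target of nonsense-mediated decay, held 24.7%, 14.9% and 19.1% (19.6% ± 4.91). In MI-503 replicate 1 the full-length form was lowest and PGR-208 highest. By reads, which favour long transcripts, PGR-202 held 92.9% on average and PGR-208 5.80%. The proteins that start at different AUGs of PGR, known as the A and B forms, are not told apart by these transcripts.

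PGR-208 differs from PGR-202 in exon 6, which lacks 52 bases (chr11:101050008-101050059), not a whole number of codons. The bases missing from PGR-208 are in capitals, with the sequence on both sides.
PGR-202 (stretch present): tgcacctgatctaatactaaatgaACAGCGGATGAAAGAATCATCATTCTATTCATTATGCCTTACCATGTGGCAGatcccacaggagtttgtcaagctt
PGR-208 (stretch absent): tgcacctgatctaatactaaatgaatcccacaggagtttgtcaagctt
Together the 2 transcripts annotated without these bases took 25.4%, 16.0% and 19.6% of the TPM, and 7.81%, 4.26% and 5.64% of the reads, of all PGR transcripts that hold this exon in either form. None of the 21 PGR reads with the DMSO label was assigned to them. PGR-208 is 2750 bases long and PGR-202 13037, and their annotated 3′ ends differ. The shares therefore do not measure the choice at these 52 bases alone.

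PGR-201 skips exon 4, a stretch of 306 bases or 102 codons that codes for the hinge and the start of the ligand-binding domain. Its junction joins exon 3 to exon 5, with the bases of exon 5 in capitals.
PGR-201 (exon 3 to exon 5): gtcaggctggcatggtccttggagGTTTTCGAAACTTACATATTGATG
It held 4.52%, 1.03% and 0% of PGR TPM with the MI-503 label, so it was not found in every library. PGR-203, which also joins these exons, held 2.74%, 1.90% and 1.57%. PGR-205, which keeps an intron, held 3.96%, 3.93% and 3.15%.

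The region before the PGR-202 start is shown because PGR had the highest level of the receptor genes. These 250 bases (chr11:101129814-101130063, minus strand, RefSeq, GRCh38.p14) end just before the first base of PGR-202. Capitals mark a GC box, GGGCGG.
PGR upstream region: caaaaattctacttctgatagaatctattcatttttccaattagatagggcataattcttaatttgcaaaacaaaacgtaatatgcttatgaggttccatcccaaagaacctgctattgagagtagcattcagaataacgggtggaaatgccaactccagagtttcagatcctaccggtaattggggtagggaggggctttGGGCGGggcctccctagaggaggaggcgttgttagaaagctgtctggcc
The GC box begins 49 bases before the start. The same windows were searched on both strands for ESR1, NR3C1 and NR3C2. Unlike the PGR window, these hold bases that lie in exons of other transcripts of the same gene. Such bases numbered 81 for ESR1, 101 for NR3C1 and 106 for NR3C2, so parts of these windows are transcribed sequence by annotation. GGGCGG was found once before ESR1, 3 times before NR3C1 and 3 times before NR3C2, and 42.6% of 35116 RefSeq promoter windows of this length held it. The full estrogen response element GGTCANNNTGACC was in none of the 4 windows and in 0.0399% of all. The full glucocorticoid-type element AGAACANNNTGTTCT was in none of the 4 and in 0.00285% of all. Its 5′ arm AGAACA was also in none, against 12.4% of all, and TATAAA in none, against 10.7%. GGTCA, which is part of the full estrogen element, was found before NR3C2 alone, at 209 and 118 bases before the start, and in 32.7% of all windows. The PGR window had 43.6% G and C, ESR1 56%, NR3C2 63.6% and NR3C1 82%, where the median of all windows was 58%.

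ESR1 reads with the MI-503 label fell on 10 of its 14 annotated transcripts. ESR1-201, which encodes the full receptor of 595 residues, held 85.5%, 88.9% and 89.3% of the TPM (87.9% ± 2.07, SD, n = 3) and 96.9% of the reads on average. All 4 reads with the DMSO label were assigned to it. ESR1-207 encodes the same protein from a start 117186 bases upstream and held 1.22%, 1.09% and 0.325%. ESR1-202 and ESR1-208, which begin nearer and also encode 595 residues, held at most 1.29% and 0.779%. The start used by ESR1-201 thus took most of the ESR1 level in each library labelled MI-503. ESR1-213, a short transcript without a coding sequence, held 8.22%, 4.25% and 5.73% on 9.45 to 16.0 estimated reads. ESR1-204, which would encode 334 residues, held 2.68%, 3.68% and 0%.

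ESR2 had too few reads to describe transcripts as shares. In the libraries labelled MI-503, ESR2-204, of 495 residues, received 9.83, 12.6 and 0 estimated reads and ESR2-213, of 472 residues, received 4.50, 2.39 and 7.34. ESR2-202, which encodes the 530-residue protein, received 2.66, 0 and 1.66. No ESR2 transcript was the leading one in all 3 libraries.

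NR3C1 had reads on 6 of 17 annotated transcripts with the MI-503 label. NR3C1-203, which encodes the 777-residue receptor, held 69.1%, 58.4% and 83.95% of the TPM (70.5% ± 12.8, SD, n = 3). NR3C1-209, with the same protein length and a start 858 bases upstream, held 20.3%, 10.4% and 12.2%. NR3C1-206 held 13.1% in MI-503 replicate 2 and none in the other replicates. NR3C1-205, the form of 742 residues with another last exon that is known as the beta form, had no read with the MI-503 label and 6.80 estimated reads in DMSO replicate 1. No share is given for the DMSO label, where NR3C1 had 31 reads in all.

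The glucocorticoid and mineralocorticoid receptor transcripts share a further feature, a choice of splice site at the end of the same exon. NR3C1-201 keeps 3 bases (chr5:143313999-143314001) that NR3C1-203 leaves out, and NR3C2-209 keeps 12 bases (chr4:148259966-148259977) that NR3C2-203 leaves out. The kept bases, in capitals, directly follow the stretch of 24 bases that is the same in both genes.
NR3C1-201 (kept): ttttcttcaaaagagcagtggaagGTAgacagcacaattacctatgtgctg
NR3C1-203 (left out): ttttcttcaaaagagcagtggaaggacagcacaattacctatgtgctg
NR3C2-209 (kept): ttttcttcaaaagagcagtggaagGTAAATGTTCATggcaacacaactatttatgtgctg
NR3C2-203 (left out): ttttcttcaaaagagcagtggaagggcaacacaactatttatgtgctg
Both kept stretches begin with GTA and add whole codons, 1 in NR3C1 and 4 in NR3C2, between the zinc fingers. In NR3C1 the 3 transcripts that keep the bases took 6.75%, 6.92% and 2.28% of the reads with the MI-503 label, among transcripts that hold this exon in either form. These reads were assigned to NR3C1-201 in replicates 1 and 3 and to NR3C1-204 in replicate 2, so the split between these transcripts was less even than their sum.

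In NR3C2 the 2 transcripts that keep the 12 bases took 31.4%, 35.1% and 0% of the reads with the DMSO label. As above, these are shares of reads on transcripts that hold this exon in either form. With the MI-503 label they took 23.2%, 26.2% and 100%. Leaving aside replicate 3 of each label, the 4 other libraries lay between 23.2% and 35.1% of reads. By TPM the shares were 47.8% and 34.6% in DMSO replicates 1 and 2, and 22.7% and 25.8% in MI-503 replicates 1 and 2. The reads that keep the bases were assigned to NR3C2-207 in DMSO replicate 1 and to NR3C2-209 in DMSO replicate 2. The replicate 3 libraries had the fewest NR3C2 reads of their label, 84 and 66, and salmon placed all of them on 1 transcript, a different one with each label. By TPM, NR3C2-203 held 72.5% ± 24.7 with the DMSO label and 41.9% ± 38.0 with the MI-503 label (SD, n = 3 each). The labels overlapped widely in this share. In MI-503 replicate 1, NR3C2-205, without a defined coding sequence, held 26.9% of the TPM on 6.55 estimated reads. Among protein-coding transcripts alone, NR3C2-203 held 72.5% with the DMSO label and 48.3% with the MI-503 label on average.

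Apart from SYNE2, genes that overlap the receptors had few reads. PGR-AS1, an antisense RNA whose annotation begins inside the first exon of PGR (chr11:101129077-101209591, plus strand), had no read with the DMSO label and 4, 10 and 14 reads with the other label. This is at least 10.7-fold higher when the floor is 3 reads over the group. An antisense RNA within ESR1, ENSG00000287914 (chr6:152091712-152094009), had 0 reads and 10, 11 and 6 reads, at least 10.3-fold higher by the same floor. SYNE1, whose 3′ end overlaps that of ESR1, had 7, 6 and 1 reads against 65, 72 and 88. Of the ESR1 transcripts with reads, ESR1-206, with 4.34 to 9.85 estimated reads in a library labelled MI-503, reaches into SYNE1. Without strand, reads from these genes and from the receptor over the same bases cannot be told apart. ENSG00000214770, on the strand of ESR2, had 11 to 14 and 14 to 19 reads. RPL7P21, which overlaps NR3C1, had at most 2 reads in a library. The remaining 6 overlapping genes had none.

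Genes with known links to each receptor were then counted, from lists that leave out the receptor genes themselves. The lists were drawn up with earlier results of these data known. Their medians stand beside the median of all genes tested, -0.004, and their counts beside the 31.7% of all genes that were higher and the 31.2% that were lower. Luminal and prostate markers differed across the labels too, and their part in these counts was not tested. Some genes stand on several lists, so the counts are not independent. TFF1 and AGR3 are both luminal markers and estrogen receptor targets, and HSD11B2 and FKBP5 recur in the lists below.

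**Figure D3:**
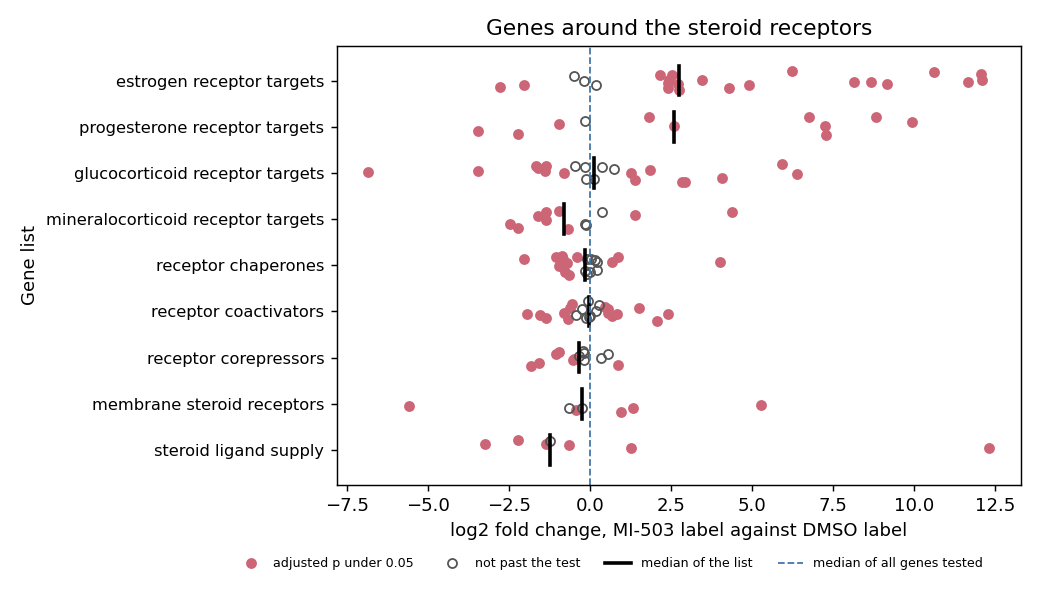
Fitted log2 fold change of the MI-503 label against the DMSO label for each measured gene of 9 lists, with filled points for an adjusted p under 0.05 by edgeR, black bars for list medians and a dashed line for the median of all genes tested. The estrogen and progesterone receptor target lists have medians of 2.76 and 2.58, and those of the chaperone, coactivator and corepressor lists lie between -0.32 and -0.02.

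Of 23 estrogen receptor targets, 18 were higher with the MI-503 label, 2 were lower and 3 did not pass. The median log2 fold change was 2.76. TFF1, a secreted trefoil peptide, was at 1.16 ± 0.152 and 88.1 ± 13.8 CPM (SD, n = 3 each; adjusted p = 3.31e-08). CA12, a carbonic anhydrase, was at 46.9 ± 3.02 and 921 ± 131 CPM (adjusted p = 7.42e-08). AGR3 had 1 read in all with the DMSO label while its mean in the others was 93.1 ± 7.44 CPM, a pooled ratio of 6022 with a counting interval from 1080 to 237883. RERG, a RAS-related growth inhibitor, had 3 reads in all with the DMSO label against 82.1 ± 11.3 CPM in the others. Lower genes were ELOVL2, a fatty acid elongase, at 4.05 ± 2.50 and 0.597 ± 0.207 CPM, and the survival gene BCL2 at 5.71 ± 1.86 and 1.41 ± 0.598 CPM. BCL2 is a textbook estrogen-induced gene, so its direction was not that of most of the list. CCND1, CELSR2 and NRIP1 did not pass, with log2 fold changes of -0.47, 0.19 and -0.17, though CCND1 passed without MI-503 replicate 3.

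Of 14 progesterone receptor targets, 11 were tested, and 7 were higher, 3 lower and 1 did not pass, with a median log2 fold change of 2.58. ELF5, a factor of the milk-producing lineage, was at 1.14 ± 0.459 and 124 ± 4.99 CPM (adjusted p = 6.06e-08). EDN1, which encodes endothelin, was at 0.142 ± 0.13 and 66.0 ± 12.9 CPM. STAT5A, which carries prolactin signals, was at 0.0766 ± 0.0245 and 12.6 ± 1.26 CPM. AREG, an EGF receptor ligand, had 2 reads in all with the DMSO label and reached 36.2 ± 7.69 CPM with the other. The lower genes were ZBTB16 at 65.4 ± 7.40 and 5.94 ± 1.21 CPM, HSD11B2 at 56.3 ± 4.18 and 12.1 ± 1.13 CPM, and FOXO1 at 20.3 ± 4.70 and 10.5 ± 1.54 CPM. All 3 are known to be induced by progestins in breast or uterine cells.

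The glucocorticoid receptor targets were divided between the directions, much as all genes tested were (31.7% higher and 31.2% lower). Of 25, 21 were tested, and 8 were higher, 7 lower and 6 did not pass, with a median log2 fold change of 0.13. ANGPTL4, a regulator of lipid uptake, was at 0.248 ± 0.142 and 15.5 ± 2.95 CPM (adjusted p = 1.87e-06), and TIPARP, an ADP-ribosyltransferase, at 4.29 ± 0.585 and 32.9 ± 4.27 CPM. RASD1, a small GTPase that dexamethasone induces, had 8.18, 8.17 and 3.87 CPM with the DMSO label, and with the other only 3 reads in all. ZBTB16 is also on this list, and KLF15, a glucocorticoid-induced factor, was lower at 20.0 ± 2.27 and 7.82 ± 2.21 CPM. Other standard readouts of the receptor were divided too. KLF9 was lower at 89.7 ± 27.9 and 34.7 ± 8.91 CPM (adjusted p = 0.00128), DUSP1 and SGK1 were lower (adjusted p = 0.0246 and 0.0300) and PER1 was higher (adjusted p = 0.0307). DUSP1, SGK1 and PER1 each did not pass without at least 3 of the 6 libraries in turn. FKBP5 and TSC22D3 did not pass. FKBP5 had 131, 139.7 and 313 CPM against 154, 179 and 189 CPM, and TSC22D3 had 232, 189 and 50.1 CPM against 248, 111 and 74.1 CPM. Their log2 fold changes were -0.16 (SE 0.30) and -0.12 (SE 0.54).

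Of 13 mineralocorticoid receptor targets, 12 were tested, and 2 were higher, 7 lower and 3 did not pass, with a median log2 fold change of -0.81. Over all genes tested, 31.7% were higher and 31.2% lower. SCNN1B, the beta subunit of the epithelial sodium channel, was higher at 1.10 ± 0.762 and 23.2 ± 1.51 CPM (adjusted p = 3.87e-05). SCNN1A, the alpha subunit, was lower at 143 ± 24.3 and 74.7 ± 8.93 CPM (adjusted p = 0.000996). HSD11B2, which inactivates cortisol and so lets aldosterone reach its receptor, was lower by a log2 fold change of -2.22 (SE 0.17). PER1, the other higher gene, had 140.5 CPM in MI-503 replicate 1 against 47.2 and 30.02 in the others and did not pass without that library (adjusted p = 0.162) or without DMSO replicate 1 or 2 (0.0869 and 0.0962). SCNN1G, another subunit of this channel, was lower at 13.9 ± 8.61 and 2.50 ± 1.26 CPM (adjusted p = 0.00405). Of the channel subunits named here, SCNN1B alone was higher. Any link of these genes to the level of NR3C2 was not tested.

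Of 21 chaperones and co-chaperones that hold unliganded receptors, 3 were higher, 10 lower and 8 did not pass, and the median log2 fold change was -0.16. The shares of all genes tested were 31.7% higher and 31.2% lower. HSP90AA1 was higher at 1204 ± 385 and 2195 ± 592 CPM, and FKBP4, the co-chaperone that favours receptor activity, at 521 ± 128 and 829 ± 85.7 CPM (adjusted p = 0.0192 and 0.0146). Leaving out MI-503 replicate 3 kept neither, so that 1 chaperone was higher, and HSP90AA1 did not pass without DMSO replicate 1, DMSO replicate 2 or MI-503 replicate 2 either. That gene was HSPA1A, at 4.79 ± 2.41 and 77.9 ± 8.85 CPM, which is uncertain because reads can be split with its near-identical copy HSPA1B. HSP90AB1, the more constant HSP90 gene, was at 2127 ± 281 and 2012 ± 197 CPM. DNAJA1 was lower at 219 ± 71.8 and 53.4 ± 15.8 CPM, DNAJA2 at 142 ± 1.50 and 79.2 ± 7.08 CPM, and the co-chaperone SGTA at 193 ± 23.8 and 114 ± 1.94 CPM.

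Coactivators were divided as well, with 8 of 23 higher, 7 lower and 8 not past the test, and a median of -0.02. These counts lie near the shares of all genes tested, 31.7% higher and 31.2% lower. Of the 3 related p160 coactivator genes, 1 was higher, 1 was lower and 1 did not pass. NCOA3, often amplified in breast cancer, was higher at 32.8 ± 4.63 and 173 ± 39.6 CPM (adjusted p = 5.88e-06). NCOA1 was lower at 88.4 ± 8.82 and 34.8 ± 2.29 CPM (adjusted p = 4.30e-05). NCOA2 was at 75.3 ± 26.7 and 74.0 ± 5.39 CPM and did not pass. MED14, a Mediator subunit, was higher at 40.0 ± 4.07 and 115 ± 15.5 CPM, while the arginine methyltransferase PRMT1 was lower at 235 ± 18.9 and 80.9 ± 5.99 CPM and NCOA7 at 54.9 ± 11.5 and 14.3 ± 4.31 CPM. Without DMSO replicate 2 the number of higher coactivators was 5.

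Among 13 corepressors there were 6 lower genes, 1 higher gene and 6 not past the test, and the median was -0.32. Beside these counts, 31.2% of all genes tested were lower and 31.7% higher. NCOR1, which bridges receptors to histone deacetylases, was lower at 288 ± 27.8 and 82.4 ± 0.877 CPM (adjusted p = 4.19e-06). HDAC2 was at 206 ± 5.69 and 69.9 ± 10.9 CPM, HDAC1 at 229 ± 10.2 and 118 ± 11.7 CPM, and TBL1X, a subunit of the NCOR complex, at 144 ± 24.5 and 69.0 ± 4.54 CPM. SIN3A, the scaffold of another deacetylase complex, was the higher gene, at 69.8 ± 6.28 and 128 ± 13.5 CPM. Without DMSO replicate 3 the number of higher corepressors was 3.

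**Figure D4:**
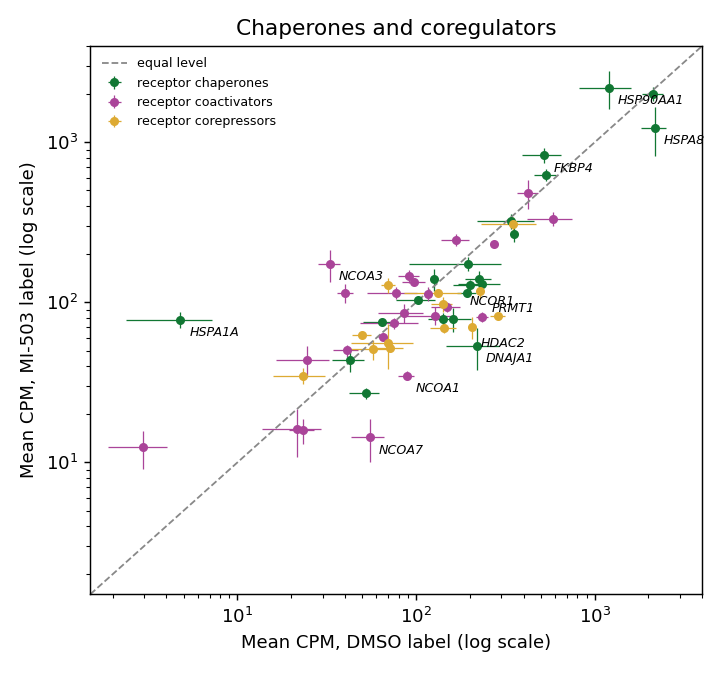
Mean CPM of receptor chaperones, coactivators and corepressors with the DMSO label (horizontal axis) and the MI-503 label (vertical axis), both on log scales, with SDs of 3 libraries as error bars and a dashed line of equal level. On these wide log scales many genes that passed the test still lie near the line. HSPA1A and NCOA3 lie well above it, and NCOR1, DNAJA1, NCOA7, PRMT1, HDAC2 and NCOA1 below it.

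Steroid receptors of other families, which sit in membranes, were also measured. Of 7 tested, 3 were higher, 2 lower and 2 did not pass, with a median log2 fold change of -0.25. This stands beside 31.7% higher and 31.2% lower among all genes tested. PAQR7, a membrane progestin receptor, was at 0.688 ± 0.374 and 26.8 ± 3.59 CPM (adjusted p = 1.63e-06), and PGRMC2 at 64.8 ± 8.88 and 125 ± 9.05 CPM. GPER1, a G protein-coupled receptor that binds estrogen, was lower at 6.55, 5.80 and 6.69 against 0, 0.0522 and 0.356 CPM. Its labels did not overlap, in the opposite direction to those of ESR1. PGRMC1 was lower at 132 ± 11.8 and 98.7 ± 4.11 CPM (adjusted p = 0.0250). PGRMC1 did not pass without DMSO replicate 2 or without any MI-503 library in turn, which left 1 lower gene.

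Among genes that set how much ligand reaches the receptors, 2 of 7 tested were higher, 4 lower and 1 did not pass. The median log2 fold change was -1.23, and 31.7% of all genes tested were higher and 31.2% lower. SERPINA6, which encodes cortisol-binding globulin of blood plasma, had 0, 0.677 and 0 CPM with the DMSO label, and 849, 1114 and 1455 CPM in the MI-503 libraries. Its CPM there were near those of PGR. STS, which frees estrogens from their sulfates, was lower at 12.3 ± 0.809 and 1.31 ± 0.863 CPM (adjusted p = 0.000102). H6PD, which supplies the cofactor for cortisol regeneration, was lower at 132 ± 40.1 and 52.2 ± 4.88 CPM. HSD17B1, which makes estradiol from estrone, was higher at 5.14 ± 1.88 and 12.3 ± 2.89 CPM (adjusted p = 0.00641). SHBG, the plasma carrier of sex steroids, was at 1.14 ± 0.727 and 0.486 ± 0.222 CPM and did not pass.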

How the data were processed

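RNA from cells labelled as T47D was isolated with the RNeasy kit with DNaseI, and Novogene prepared and sequenced the libraries. The authors quantified transcripts with salmon (Illumina DRAGEN) and deposited estimated counts per transcript, without normalization, and TPM, scaled for effective length within each library. The submitters' processing notes name GRCh38.p13 and hg38, while for the annotation release, the library strand and salmon's bias settings no source used here gives an entry. Identifiers were matched to GENCODE release 44 (98.8% of identifiers, at least 99.16% of reads), and estimated counts were summed to genes and rounded. Libraries were grouped by label alone and held 17404736 to 22168525 reads.

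The whole table was fitted with edgeR (version 4.0.16) by its quasi-likelihood test after filterByExpr and TMM scaling, with Benjamini-Hochberg adjustment over 16442 genes, and a gene passed at an adjusted p under 0.05. This test was run on simulated data with 16066 genes, of which 15867 were unchanged. It called 50% of 100 genes changed by a log2 of 1, 98.0% of 99 changed by 3 and 0.0819% of the unchanged genes. Between the labels 62.9% of genes passed, and how the test performs with so many genes differing was not tested. DESeq2 (version 1.42.0), used by the study, was an alternative. Standard errors were computed from the fold change and the test statistic. Pooled ratios carry exact (Clopper-Pearson) 95% intervals, and a group without reads got a floor of 3 reads.

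The receptor genes and the 12 gene lists were chosen with earlier results of these data known. Genes named were the receptors, genes overlapping them, up to 4 genes a list with the smallest adjusted p, up to 3 that passed against the list's majority, and the 3 most alike genes of each receptor. GATA3, FOXA1, IGFBP4, FKBP5, TSC22D3, KLF9, DUSP1, SGK1, SCNN1G, HSP90AB1, NCOA2 and SHBG, and the estrogen receptor targets that did not pass, were named after their values were seen. TMT1A matched no symbol. Some genes that this rule takes are not reported here.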

Additional observations from a re-analysis of the deposited data

How the results depend on the processing

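Of 427 values recomputed under alternatives, 380 stayed within 1.5 times the reported count or within 1 SD of the reported value, and no fold change of a receptor gene changed sign. The balance of higher and lower calls did turn for some counts: upper-quartile scaling gave 4827 higher and 5582 lower genes and 6 and 7 coactivators, and coactivators were 5 and 6 without DMSO replicate 2 and 6 and 7 without DMSO replicate 3. With a log2 fold change beyond 2 required as well, 2065 genes were higher and 1930 lower, with 5 and 2 glucocorticoid receptor targets, 1 and 2 mineralocorticoid receptor targets, 1 and 1 chaperones, 2 and 0 coactivators, 0 and 0 corepressors, 1 and 1 membrane receptors, and 1 and 2 ligand supply genes. DESeq2 and the fit with the replicate number as a block each left 1 higher mineralocorticoid receptor target. The block, which gave 5071 higher and 4913 lower genes, left 2 higher corepressors, and so did no filter on low counts, which left 1 lower membrane receptor. Same-numbered libraries did not deviate together (correlations -0.098, 0.071 and -0.089), and 1 of 3 DMSO libraries correlated best with its own number, so the numbers were not taken to pair the samples.

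As each library was left out in turn, the log2 fold change ran from 11.27 to 15.28 for ESR1, 1.59 to 2.34 for ESR2, 11.51 to 12.53 for PGR, 4.69 to 5.70 for NR3C1 and 0.13 to 0.65 for NR3C2. Higher genes numbered 1 to 2 for mineralocorticoid receptor targets, 1 to 3 for chaperones, 5 to 8 for coactivators and 1 to 3 for corepressors, and lower membrane receptors 1 to 2. On TPM plus 0.05 the values were 9.78 for ESR1 and 10.73 for PGR. Shares of reads were 92.9% for PGR-202, 5.80% for PGR-208, 96.9% for ESR1-201 and 84.2% for NR3C1-203. Among protein-coding transcripts alone, PGR-202 held 96.9% and ESR1-201 93.9% of the TPM. The cause of these shifts was not tested, beyond the fold threshold, the number of libraries and the transcripts taken in. With KRT13, F3 and KLK3 at their floor-based bound, the list medians were the same. Depth limits ESR1, ESR2, PGR and NR3C1 with the DMSO label, where 4, 11, 21 and 31 reads were counted in all.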
